A study of Mus musculus with 20 samples.

Results

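The genes described are those of MHC class II antigen presentation: *H2-Aa*, *H2-Ab1*, *H2-Eb1*, *H2-DMa*, *H2-DMb1*, *Cd74*, *Ciita* and *Cd86*. They were taken by symbol from a table of 50559 genes. All 8 were in the table and all 8 passed the filter on low counts in every comparison. Class II molecules are pairs of an alpha and a beta chain that show peptides from engulfed material to CD4+ T cells. The invariant chain holds their peptide groove until H2-DM exchanges its last fragment for a peptide. CIITA switches on the genes for the class II chains, the invariant chain and H2-DM. In the liver they are known from dendritic cells, macrophages, Kupffer cells and B cells, and hepatocytes are not their usual source.

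RNA-seq was made from 20 livers of mice on a C57BL/6 background that were homozygous for a floxed *Cideb* allele (Cideb fl/fl). WT livers came from mice given AAV-TBG-GFP, and KO livers from mice given AAV-TBG-Cre, in which the hepatocyte promoter TBG drives Cre so that *Cideb* is deleted in hepatocytes and not by design in immune cells. Each vector was combined with a western diet (WD) or CDA-HFD, a high-fat diet with defined amino acids that is deficient in choline, with 5 livers in each of the 4 groups. The labels give 3 months of feeding for either diet, no age, and no statement on whether livers of a group shared a cage or a preparation. The paper gives a longer feeding time on WD than on CDA-HFD for floxed mice, so diet, feeding time and any difference in handling cannot be told apart.

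Each liver had between 11697049 and 16827147 reads counted on genes. *Cideb* had 35 to 100 counts in WT livers and 0 to 6 in KO livers, so every library matched its vector. One liver stood apart on the class II genes, KO liver 5 on CDA-HFD, with 1 count of *Cideb*. The values of the 8 genes against KO livers on CDA-HFD, and the counts of each gene list there, are given with and without it. That liver was picked by its values on these genes, so p-values without it describe the remaining livers and are no independent test. Values per liver are CPM, that is counts scaled to a common library size after TMM over the 20 livers. Fold changes and adjusted p-values come from edgeR's quasi-likelihood test on the raw counts, adjusted by Benjamini-Hochberg over all genes tested, and a gene passed at an adjusted p under 0.05.

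The genes for the 3 chains and for H2-DM lie together in the MHC on chromosome 17 in GRCm38: *H2-DMa* at chr17:34119541-34139101 (+), *H2-DMb1* at chr17:34153072-34160230 (+), *H2-Ab1* at chr17:34257689-34269419 (+), *H2-Aa* at chr17:34282744-34287823 (-) and *H2-Eb1* at chr17:34305867-34316674 (+). *Ciita* is at chr16:10480059-10528418 (+) and *Cd86* at chr16:36603869-36666081 (-). Promoters of class II genes are known for an X box, bound by the RFX complex, followed by a Y box, bound by NF-Y, on which CIITA assembles. RefSeq promoter windows (GRCm38.p6, 300 bases, from 250 before to 50 after the start) were given for 4 of the 8 genes, *H2-Aa*, *H2-DMa*, *H2-DMb1* and *H2-Eb1*. The stretch from 110 to 41 bases before the start is shown for the 3 of them whose window holds TGATTGG, a longer form of the Y box, because their levels moved together over the livers. Capitals mark TGATTGG and, where it precedes it, the X box core AGNNACNG.
*H2-Eb1*, chr17:34305757-34305826 (+): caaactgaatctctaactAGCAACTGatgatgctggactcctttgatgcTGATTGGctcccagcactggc
*H2-DMb1*, chr17:34153081-34153150 (+): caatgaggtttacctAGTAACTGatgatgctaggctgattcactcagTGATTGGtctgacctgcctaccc
*H2-Aa*, chr17:34287864-34287933 (-): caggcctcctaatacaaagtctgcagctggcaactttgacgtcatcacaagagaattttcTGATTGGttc
In *H2-Eb1* AGNNACNG began 92 bases before the start and 33 bases before ATTGG, and in *H2-DMb1* 95 bases before the start and 34 bases before ATTGG. The pair, with AGNNACNG 20 to 45 bases before ATTGG on the same strand, was in 1.35% of 32851 RefSeq promoter windows of this length. ATTGG alone was in 37.4%, AGNNACNG alone in 50.9% and TGATTGG, which contains ATTGG and was chosen after the sequences were seen, in 7.82%, each searched on both strands. In *H2-Aa* TGATTGG began 50 bases before the start and AGNNACNG was not in the window. No other form of the X box was searched, so this does not show that *H2-Aa* lacks one. *H2-DMa* has 2 windows. The first, at chr17:34122582-34122881, held 1 AGNNACNG and no ATTGG, and the second, at chr17:34125268-34125567, held 1 ATTGG and no AGNNACNG. A match is a run of letters and not a measured site.

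Per kilobase of GENCODE exon (mean ± SD, n = 5), *Cd74* was the highest of the 8 in WT livers on CDA-HFD at 199.6 ± 24.6 CPM per kb. The chains followed, with *H2-Eb1* at 63.1 ± 14.2, *H2-Ab1* at 46.0 ± 11.1 and *H2-Aa* at 43.7 ± 8.71 CPM per kb, and the last 2 did not differ beyond their spread. *H2-DMb1* was at 8.66 ± 2.41 and *H2-DMa* at 6.11 ± 0.991 CPM per kb. *Cd86*, at 2.42 ± 0.213, and *Ciita*, at 2.34 ± 0.472 CPM per kb, were the lowest and lay within their spread of each other. The order from *Cd74* through *H2-Eb1*, *H2-Ab1* and *H2-Aa* was also that of the means in the other 3 groups. It depends on the length used, which joins all annotated exons of a gene: 3798 bases for *H2-Aa*, 2568 for *H2-Ab1* and 1944 for *H2-Eb1*. In CPM without length, *H2-Aa* was the highest chain in WT livers on CDA-HFD at 166 ± 33.1. *H2-Eb1* was at 123 ± 27.5 and *H2-Ab1* at 118 ± 28.4 CPM there, and *H2-DMa*, at 21.1 ± 3.42, was above *H2-DMb1*, at 14.6 ± 4.05 CPM. Of the 75-base windows of their GENCODE transcripts, 15.8% of *H2-DMb1* were shared with *H2-DMb2* and 7.46% of *H2-DMa* with *Brd2*, which overlaps it on the opposite strand. None were shared with another gene for *H2-Aa*, *H2-Ab1*, *H2-Eb1*, *Cd74* and *Cd86*. *Ciita* overlaps *Dexi* on the opposite strand over 3.45% of its exon bases. Whether reads were assigned by strand is not given in the sources used here, so *H2-DMa* and *Ciita* may hold reads of these neighbours, and *H2-DMb1* is uncertain where it matches *H2-DMb2*. *H2-Ea*, the alpha chain partner of *H2-Eb1*, had 1 count in all over the 20 livers and 0 in 19 of them. It is known as a pseudogene in mice of the b haplotype and was looked up after its values were seen.

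**Figure D1:**
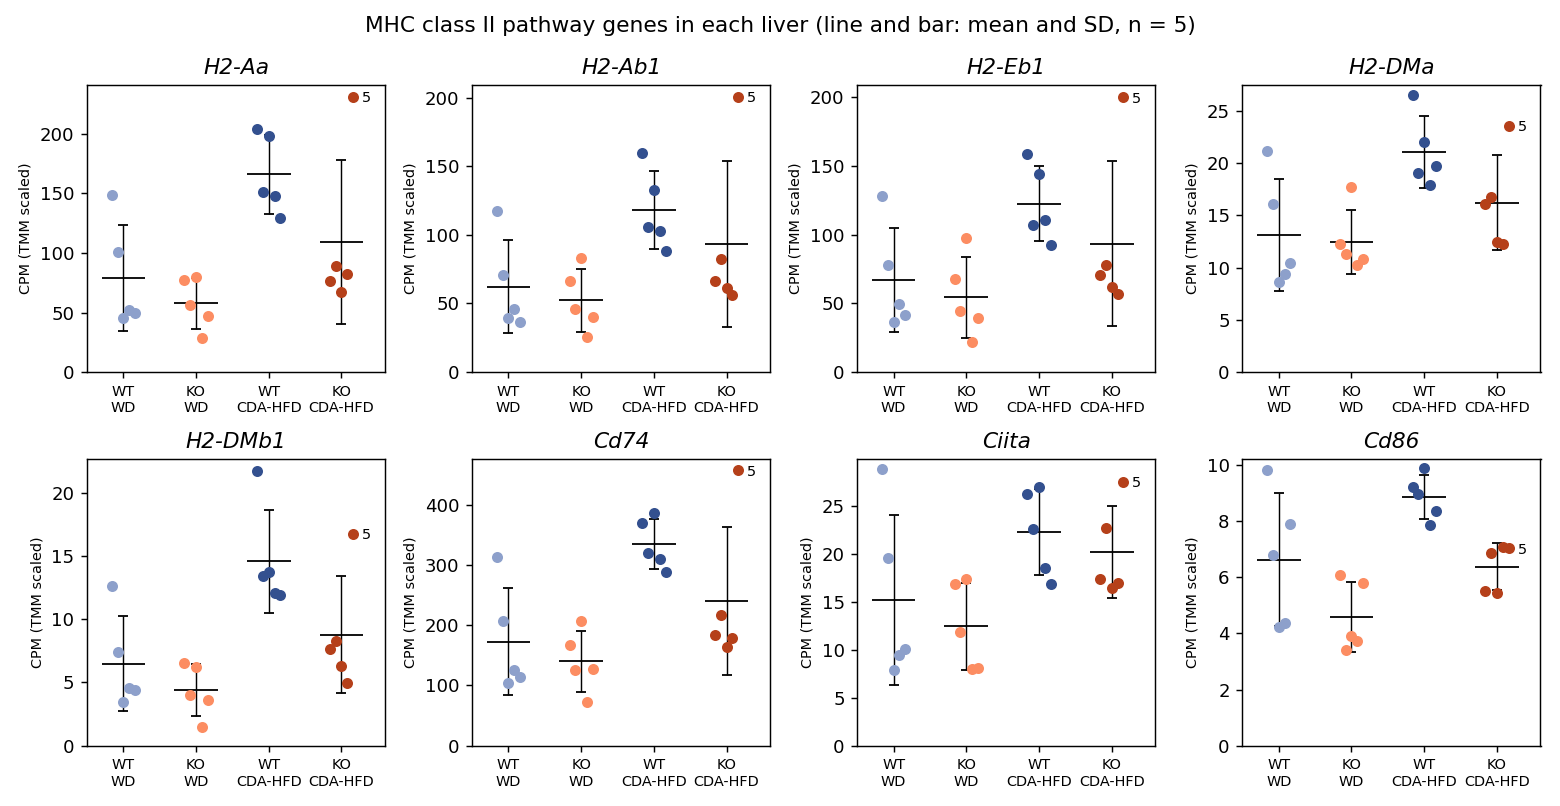
CPM (vertical axis, from 0) of the 8 genes in each of the 20 livers by group (horizontal axis), with the mean as a line and the SD as a bar (n = 5). KO liver 5 on CDA-HFD, marked 5, is the highest of the 20 livers for *H2-Aa*, *H2-Ab1*, *H2-Eb1* and *Cd74*, and lies among the other KO livers for *Cd86*.

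The first question was whether loss of *Cideb* in hepatocytes moved these genes on CDA-HFD. The fitted values of all 8 were lower in KO than in WT livers, and only *Cd86* passed the test, which makes 1 of 8 lower against 7.29% of all 17204 genes tested. In 4 of the 5 KO livers, *H2-Aa*, *H2-Ab1*, *H2-Eb1*, *H2-DMa*, *H2-DMb1*, *Cd74* and *Cd86* lay below every WT liver. The fifth KO liver lay above every WT liver for the chain genes and *Cd74*. That split sets aside a liver picked by its values on these genes, and its share over all genes was not computed. With all KO livers kept, 1 of the 8 genes had groups that did not overlap, beside 9.57% of all genes tested. The median log2 fold change of the 8 was -0.44, beside 0.00499 over all genes tested.

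*H2-Ab1*, the beta chain of I-A, was at 159.9, 106, 133, 103 and 88.5 CPM in WT livers 1 to 5 on CDA-HFD. In KO livers 1 to 5 it was at 66.6, 82.5, 61.4, 56.4 and 201 CPM. The first 4 KO livers lay below all WT livers and the fifth above them. The KO level was 79.0% of WT (log2 fold change -0.34 ± 0.33 SE, edgeR adjusted p = 0.486). Without KO liver 5 it was 56.5% of WT, with a log2 fold change of -0.82 ± 0.17 SE (edgeR adjusted p = 0.00353).

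*H2-Aa*, the alpha chain of I-A, was at 204, 151, 198, 148 and 129 CPM in WT livers and at 76.6, 88.9, 67.5, 82.3 and 231 CPM in KO livers. KO liver 5 held 2.93 times the mean of the other 4 KO livers and more than any WT liver. Over all 10 livers the log2 fold change was -0.61 ± 0.32 SE (edgeR adjusted p = 0.191), and without KO liver 5 it was -1.08 ± 0.15 SE (edgeR adjusted p = 0.000397). *H2-Eb1*, the beta chain of I-E, was at 159, 107, 144, 111 and 92.7 CPM in WT livers and at 70.4, 77.9, 62.1, 56.6 and 200.2 CPM in KO livers, with the same split between the fifth liver and the other KO livers. Its log2 fold change was -0.40 ± 0.33 SE (edgeR adjusted p = 0.406), and -0.88 ± 0.16 SE without KO liver 5 (edgeR adjusted p = 0.00182).

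*Cd74*, the invariant chain, which lies outside the MHC on chromosome 18, was at 370.3, 321, 386, 309.7 and 289 CPM in WT livers and at 185, 216, 164, 179.5 and 457 CPM in KO livers. The gap between the groups was wide once the fifth KO liver was set aside, since the other 4 reached 216 CPM at most and the lowest WT liver had 289 CPM. The log2 fold change was -0.49 ± 0.26 SE (edgeR adjusted p = 0.205), and -0.85 ± 0.12 SE without KO liver 5 (edgeR adjusted p = 0.00049).

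*H2-DMb1*, the beta chain of the peptide exchange factor, had the lowest fitted fold change of the 8. It was at 21.7, 13.4, 13.7, 12.1 and 11.9 CPM in WT livers and at 7.66, 8.24, 6.32, 4.93 and 16.7 CPM in KO livers. WT liver 1 and KO liver 5 were each high within their group. The log2 fold change was -0.73 ± 0.30 SE (edgeR adjusted p = 0.113), and -1.10 ± 0.21 SE without KO liver 5 (edgeR adjusted p = 0.00213). *H2-DMa*, its alpha chain partner, was at 26.6, 19.1, 22.0, 17.9 and 19.7 CPM in WT livers and at 16.1, 16.7, 12.5, 12.3 and 23.6 CPM in KO livers. The KO level of *H2-DMa* was 76.9% of WT (edgeR adjusted p = 0.158), and 68.3% without KO liver 5 (edgeR adjusted p = 0.00999).

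*Ciita*, the transactivator of the class II genes, differed least. It was at 26.2, 22.6, 27.0, 18.6 and 16.9 CPM in WT livers and at 17.4, 22.8, 16.4, 16.98 and 27.5 CPM in KO livers, and the groups overlapped with and without KO liver 5. The KO level was 90.6% of WT (log2 fold change -0.14 ± 0.18 SE, edgeR adjusted p = 0.592). The interval of 2 SE ran from -0.50 to 0.21. Without KO liver 5 the log2 fold change was -0.28 ± 0.16 SE (edgeR adjusted p = 0.182), so *Ciita* was the 1 member of 8 that did not pass in those 9 livers.

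*Cd86*, a costimulatory ligand for CD28 on T cells and not part of the MHC molecule, was the gene that passed over all 10 livers. It was at 9.21, 8.95, 9.89, 7.85 and 8.37 CPM in WT livers and at 5.50, 6.84, 5.45, 7.06 and 7.02 CPM in KO livers. The groups did not overlap, as was the case for 9.57% of all genes tested, and KO liver 5 was among the KO livers. The KO level was 71.8% of WT, with a log2 fold change of -0.48 ± 0.12 SE (edgeR adjusted p = 0.0278). The exact two-sided permutation test of the mean CPM gave p = 0.00794, the smallest that 5 livers against 5 allow. The call was near its threshold: it was lost in 7 of the 10 fits that left out 1 liver (WT liver 1, 2, 3 or 5, or KO liver 1, 2 or 3), with an adjusted p of 0.0511 to 0.0765 in those, and with KO liver 5 left out it was 0.00845.

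Without KO liver 5, 7 of the 8 genes were lower and passed, beside 21.8% of the 17411 genes tested in those 9 livers, and the median of the 8 was -0.84. That liver was chosen by its high values on these genes, and leaving it out lowers the KO values and their spread. These p-values are therefore no independent support. Of the 10 fits that left out 1 liver, this was the only one that called more than 1 member. Over all genes, leaving out KO liver 5 raised the calls from 2664 to 7201, with 3406 higher and 3795 lower of 17411. With library size as the only scaling, the median of all genes moved to -0.19 and the calls from 1409 higher and 1255 lower to 517 higher and 1192 lower, and *Cd86* was still the only member called. The exact permutation test with all 10 livers gave p between 0.0556 and 0.492 for the 7 genes other than *Cd86*.

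**Figure D2:**
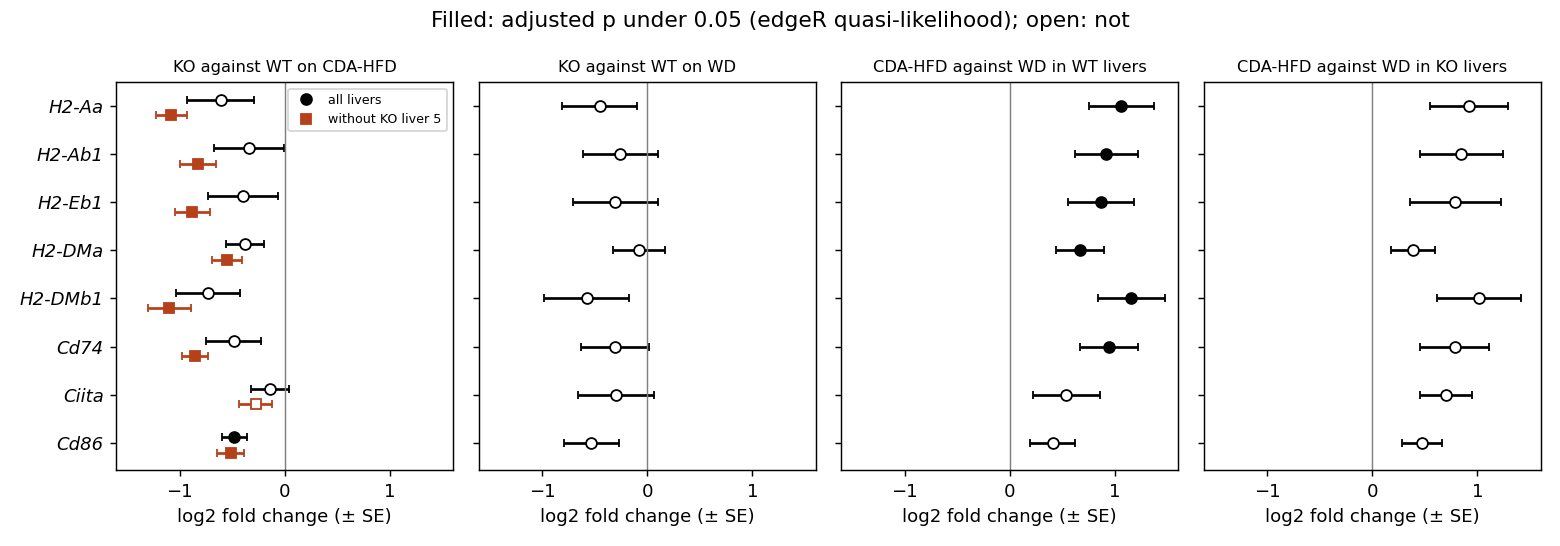
Log2 fold changes with their SE (horizontal axis) for the 8 genes (vertical axis) in the 4 comparisons, one panel each, from fits on 10 livers. Filled symbols have an adjusted p under 0.05, and squares in the first panel leave out KO liver 5: *Cd86* is the only filled circle there, and 7 of the 8 squares are filled.

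On WD 0 of the 8 genes passed, beside 0.0757% of the 15848 genes tested. The groups overlapped for all 8, and 2.22% of all genes tested had groups that did not. At an unadjusted p under 0.05 the count was 0 as well, and DESeq2 called 0. *H2-Ab1* was at 118, 70.5, 39.6, 46.2 and 36.6 CPM in WT livers and at 66.1, 46.0, 83.3, 25.4 and 40.1 CPM in KO livers. WT livers 1 and 2 were the highest of the WT livers on WD, and the other 3 lay within the range of the KO livers. *Cd74* was at 313, 208, 104, 126 and 114 CPM in WT livers and at 167, 126, 207, 72.7 and 127 CPM in KO livers, with the same 2 WT livers on top.

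The fitted values on WD ran from -0.58 for *H2-DMb1* to -0.08 for *H2-DMa* on the log2 scale, with a median of -0.31. For 5 of the 8 genes the direction turned when WT liver 1 was left out: *H2-Ab1* was at 0.11, *H2-Eb1* at 0.08, *H2-DMa* at 0.16, *Cd74* at 0.02 and *Ciita* at 0.07, and the median of the 8 was 0.05. *H2-DMa* also lay at 0.00073 without WT liver 2. *H2-Aa*, *H2-DMb1* and *Cd86* kept a negative value whichever liver was left out. *Cd86* was at 9.80, 6.79, 4.24, 4.36 and 7.88 CPM in WT livers and at 6.07, 3.42, 3.91, 3.72 and 5.79 CPM in KO livers. Its log2 fold change on WD was -0.53 ± 0.26 SE (edgeR adjusted p = 0.492), near in size to that on CDA-HFD but with a wider spread. *Ciita* was at 28.8, 19.6, 7.95, 9.52 and 10.1 CPM in WT livers and at 16.8, 11.9, 17.4, 7.98 and 8.14 CPM in KO livers, and *H2-Aa* at 148, 101, 45.2, 52.0 and 49.2 and 77.3, 56.2, 80.1, 28.9 and 47.1 CPM.

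The effect of the KO was then compared between the diets. In the interaction fit on all 20 livers 0 of the 8 genes passed, beside 0.556% of all genes tested, and 0 had an unadjusted p under 0.05. DESeq2 also called 0. The fitted differences between the KO effects on CDA-HFD and on WD ran from -0.29 for *H2-DMa* to 0.16 for *Ciita*, with adjusted p-values of 0.697 to 0.958 by edgeR. The intervals were wide, for *H2-Ab1* from -1.14 to 0.98 at 2 SE, so that differences of this size were not detectable with these livers. Without KO liver 5 the differences ran from -0.63 to 0.02 with a median of -0.53, 0 of the 8 passed (edgeR adjusted p from 0.341 to 0.982), and the genes called over the whole table went from 99 to 2138.

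The diets were compared within each vector. The comparisons share groups with those above, so they are no independent look at the same livers. In WT livers 6 of the 8 genes rose on CDA-HFD, beside 25.9% of all 16726 genes tested that rose. *H2-DMb1* was at 2.23 times its WD level (log2 fold change 1.15 ± 0.32 SE, edgeR adjusted p = 0.00988), and *H2-Aa* at 2.09 times (1.06 ± 0.31 SE, edgeR adjusted p = 0.0138). *Cd74* was at 1.93 times (edgeR adjusted p = 0.0128), *H2-Ab1* at 1.89 times (edgeR adjusted p = 0.0236), *H2-Eb1* at 1.82 times (edgeR adjusted p = 0.0352) and *H2-DMa* at 1.59 times (edgeR adjusted p = 0.0287). *Ciita*, at 1.45 times, and *Cd86*, at 1.33 times, did not pass, with edgeR adjusted p-values of 0.177 and 0.13. None of the 8 genes had groups that did not overlap, beside 37.1% of all genes tested that did. WT liver 1 on WD reached the range of the CDA-HFD livers for all 8, as did WT liver 2 for *Ciita* and WT liver 5 for *Cd86*. Without WT liver 1 on WD all 8 passed. Without WT liver 3, 4 or 5 on WD, or WT liver 1 on CDA-HFD, 3 of the 8 still passed, and without WT liver 3 on CDA-HFD 4 did.

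In KO livers 0 of the 8 genes passed between the diets, beside 9.19% of 16387 genes that rose. By unadjusted p 5 of the 8 were under 0.05, and DESeq2 called *Ciita*. The fitted values were all higher on CDA-HFD, from 0.39 for *H2-DMa* to 1.02 for *H2-DMb1* on the log2 scale, with edgeR adjusted p-values of 0.0711 to 0.224. Without KO liver 5 on CDA-HFD they ran from 0.20 to 0.64. Whether the diet effect differed between WT and KO livers is the same interaction as above.

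Within a library the chain genes kept nearly constant proportions. The ratio of *H2-Eb1* to *H2-Ab1* counts lay between 0.853 and 1.17 in all 20 livers, with an SD of 0.107 on the log2 scale against 0.809 for *H2-Eb1* itself. For *Cd74* to *H2-Ab1* the SD was 0.148, and for *H2-Aa* to *H2-Ab1* 0.180. The ratio of *H2-Aa* to *H2-Ab1* ran from 0.962 to 1.49. In KO livers on CDA-HFD it was 0.833 times that in WT livers (exact two-sided permutation p = 0.0317, Benjamini-Hochberg adjusted p = 0.159). For *H2-DMa* to *H2-DMb1* the SD was 0.539, above that of *H2-DMa* itself at 0.477 and below that of *H2-DMb1* at 0.911. For *Ciita* to *H2-Ab1* it was 0.312 and for *Cd86* to *H2-Ab1* 0.573, which is above the SD of *Cd86* itself at 0.468. In KO liver 5 on CDA-HFD the chain genes were thus high together, and *Cd86* was not.

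**Figure D3:**
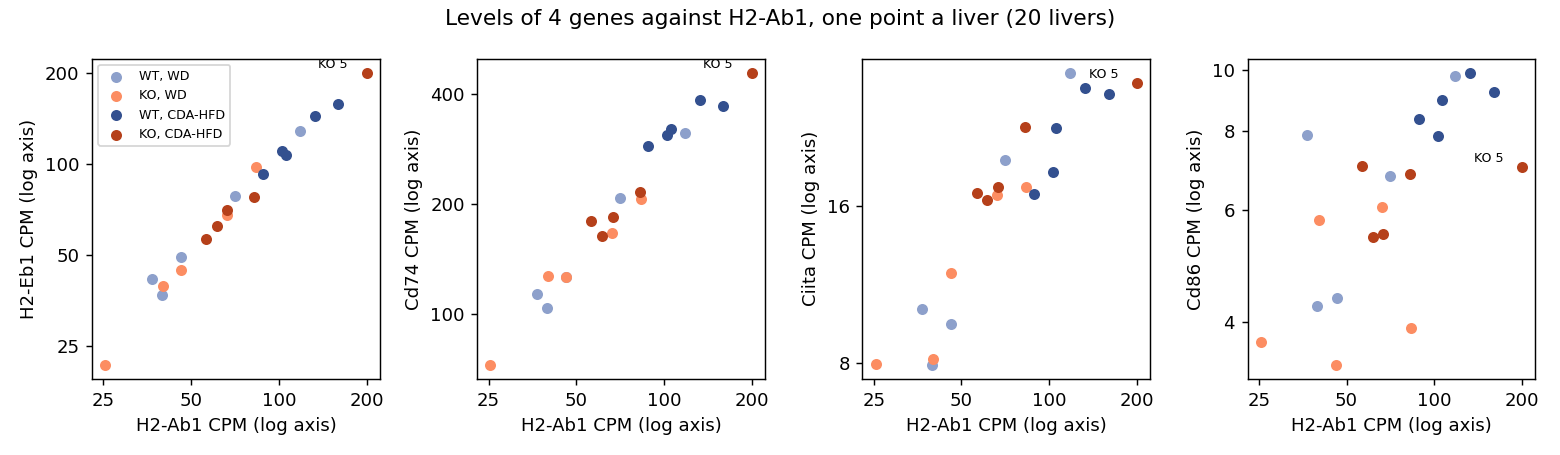
CPM of *H2-Eb1*, *Cd74*, *Ciita* and *Cd86* (vertical axes, log scale) against CPM of *H2-Ab1* (horizontal axis, log scale), one point for each of the 20 livers, coloured by group. *H2-Eb1* and *Cd74* keep to a narrow band over all groups, and for *Cd86* KO liver 5 on CDA-HFD lies below the WT livers on CDA-HFD.

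The members were set beside *Ptprc*, the pan-leukocyte gene CD45, which fell in KO livers on CDA-HFD (log2 fold change -0.92, edgeR adjusted p = 0.0236, and -1.19 without KO liver 5, edgeR adjusted p = 0.000186). The *Ptprc* call was lost in 6 of 10 fits that left out 1 liver, with an edgeR adjusted p of 0.053 to 0.0632 in those. In whole liver, fewer cells of a type and less RNA per cell cannot be told apart. Counts of *Ciita* per count of *Ptprc* lay between 0.162 and 0.239 in WT livers on CDA-HFD and between 0.286 and 0.438 in KO livers, with no overlap. The ratio in KO livers was 1.78 times that in WT livers (exact two-sided permutation p = 0.00794). A gene whose level does not change also rises in such a ratio when *Ptprc* falls. *Ciita* itself was at -0.14 on the log2 scale, and on WD *Ptprc* was at -0.76 and did not pass. Ratios to *Ptprc* were not computed over all genes, so those given here do not show a gain particular to class II genes. For *H2-DMa* the ratio lay between 0.190 and 0.201 in WT livers and between 0.216 and 0.390 in KO livers on CDA-HFD (exact permutation p = 0.00794), and on WD between 0.257 and 0.312 in WT livers and between 0.324 and 0.844 in KO livers (exact permutation p = 0.00794). For *H2-Aa* it was 1.24 to 1.73 in WT and 1.45 to 2.40 in KO livers on CDA-HFD (exact permutation p = 0.175). The ratios of *H2-Ab1*, *Cd74*, *H2-Eb1* and *Cd86* were also higher in KO livers there, at 1.31 to 1.41 times (exact permutation p = 0.0317 to 0.0476). That of *H2-DMb1* was at 1.11 times (exact permutation p = 0.532). Counts of *Ciita* and *H2-DMa* may hold reads of *Dexi* and *Brd2*. KO liver 5 was at 0.286 for *Ciita*, 0.245 for *H2-DMa* and 2.40 for *H2-Aa* per *Ptprc*, the lowest KO liver in the first and the highest in the last. Over the 60 tests on 15 such ratios in 4 comparisons, none passed after adjustment, and the smallest Benjamini-Hochberg adjusted p was 0.0681 by permutation.

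The other genes of the pathway were taken from lists chosen with earlier results of these data known. Of the class II partners, 2 of 8 tested fell in KO livers on CDA-HFD, beside the 7.29% of all genes: *Lgmn*, an endosomal protease, at -0.88 (edgeR adjusted p = 0.0171), and *Ifi30*, a lysosomal thiol reductase, at -0.82 (edgeR adjusted p = 0.0234). *Ctss*, the protease that trims the invariant chain, was at -1.42 (edgeR adjusted p = 0.0616), and *H2-DMb2* at -0.43 (edgeR adjusted p = 0.429). The median of the list was -0.73, and 5 of 8 were lower without KO liver 5, beside the 21.8% of all genes. Between the diets, 8 of 8 partners rose on CDA-HFD in WT livers, beside the 25.9% of all genes, and 1 of 7 tested, *Ctss*, in KO livers, beside the 9.19%. *H2-Oa* was below the filter. With 1 liver left out in turn, the call was lost in 1 of 10 fits for *Lgmn* and in 7 for *Ifi30*.

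Of the factors that bind class II promoters or drive *Ciita*, 3 of 10 fell, beside 7.29% of all genes, and the list's median was -0.09. They were *Nfya*, a subunit of NF-Y, at -0.56 (edgeR adjusted p = 0.0235), *Spi1*, the myeloid factor PU.1, at -0.94 (edgeR adjusted p = 0.029), and *Creb1*, which binds the X2 box, at -0.37 (edgeR adjusted p = 0.0325). The other NF-Y subunits were not lower, with *Nfyb* at 0.41 (edgeR adjusted p = 0.101) and *Nfyc* at 0.23 (edgeR adjusted p = 0.163). The RFX subunits were not lower either, with *Rfx5* at 0.19 (edgeR adjusted p = 0.255), *Rfxap* at 0.24 (edgeR adjusted p = 0.397) and *Rfxank* at 0.33 (edgeR adjusted p = 0.0544). With each liver left out, the call was lost in 6 of 10 fits for *Nfya* and in 7 for *Spi1*. Without KO liver 5, 5 were lower and 4 higher, beside 3795 lower and 3406 higher of all 17411 genes tested. Of the interferon gamma genes, which induce *Ciita*, 2 of 9 fell, beside the 7.29% of all genes. They were *Ifngr2*, a receptor chain, at -0.50 (edgeR adjusted p = 0.0153), and *Jak2*, its kinase, at -0.36 (edgeR adjusted p = 0.0426). *Ifngr1* was at -0.43 (edgeR adjusted p = 0.195), and *Ifng* itself was too low to be tested. The *Ifngr2* call held in all 10 fits that left out 1 liver, and that of *Jak2* was lost in 8. In the fit that left out KO liver 5, 4 of the 9 were lower and 1 higher, beside the same counts over all genes.

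None of the 8 costimulation genes tested passed, and without KO liver 5, 5 of 8 were lower, beside 21.8% of all genes. *Cd80*, the other ligand of CD28 beside *Cd86*, was at -0.58 (edgeR adjusted p = 0.0837), *Cd40* at -0.75 (edgeR adjusted p = 0.0787) and *Cd83*, a marker of mature dendritic cells, at -1.03 (edgeR adjusted p = 0.0704). Of the MHC class I genes, which present peptides from within the cell, 2 of 12 were higher, beside 8.19% of all genes tested, and 0 were lower. *H2-K1*, a class I heavy chain, was at 0.47 (edgeR adjusted p = 0.0181), and *Nlrc5*, the class I transactivator related to *Ciita*, at 0.50 (edgeR adjusted p = 0.0259). *H2-D1* was at 0.25 (edgeR adjusted p = 0.2). With library size as the only scaling, *H2-K1* and *Nlrc5* no longer passed (edgeR adjusted p = 0.102 and 0.0837), and with each liver left out their calls were lost in 3 and 7 of 10 fits. With KO liver 5 left out, 3 of the 12 were higher and 0 lower, beside 3406 higher and 3795 lower of all 17411 genes tested. On WD no gene of these 5 lists passed.

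Lists for cells that carry class II were compared in KO and WT livers on CDA-HFD, beside 7.29% of all genes tested that were lower and 8.19% that were higher. Of recruited and lipid-associated macrophage genes 6 of 10 were lower. Of Kupffer cell genes 2 of 8 were lower and 1 higher, of dendritic cell genes 1 of 10 was higher, and of 8 B cell genes 0 passed. The part of these cells in the result was not tested. The summed level of 10 genes of recruited and lipid-associated macrophages ran from 1585 to 3563 CPM in WT livers on CDA-HFD. In KO livers it ran from 303 to 2404 CPM, with the highest value in KO liver 5. Of the 10, 6 fell, among them *Trem2* at -1.73 (edgeR adjusted p = 0.048), *Cd68* at -1.53 (edgeR adjusted p = 0.0204) and *Itgam* at -1.92 (edgeR adjusted p = 0.0218), and *Gpnmb* was at -2.09 (edgeR adjusted p = 0.1). With each liver left out, the call was lost in 9 of 10 fits for *Trem2*, in 4 for *Cd68* and in 5 for *Itgam*. In the fit that left out KO liver 5, all 10 were lower, beside 21.8% of all genes tested. Of 8 Kupffer cell genes, *Adgre1*, at -0.90, and *Csf1r*, at -0.71, fell (edgeR adjusted p = 0.0276 for both), and *Cd163* rose by 4.14 on the log2 scale (edgeR adjusted p = 0.0137), while *Clec4f* was at 0.34 and *Vsig4* at -0.25. The Kupffer list summed to 461 to 844 CPM in WT and 385 to 654 CPM in KO livers, with KO liver 5 the lowest. Without that liver 3 of its genes were higher and 2 lower, beside 3406 higher and 3795 lower of all 17411 genes tested. The *Adgre1* call was lost in 6 of 10 fits that left out 1 liver.

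The dendritic cell list summed to 114 to 175 CPM in WT and 60.6 to 164 CPM in KO livers on CDA-HFD, with KO liver 5 on top of the KO livers. Of its 10 genes, *Clec9a* rose (0.43, edgeR adjusted p = 0.039), a call lost in 8 of 10 fits that left out 1 liver and in 4 of 7 other alternatives. *Flt3* was at 0.08 and *Zbtb46* at 0.14, and *Itgax*, which macrophages also express, was at -1.59 (edgeR adjusted p = 0.059). *Itgax* made up most of the list's sum in WT livers, at 91.1 ± 20.9 CPM against 30.4 ± 33.3 CPM in KO livers (SD, n = 5), while *Zbtb46* was at 19.2 ± 2.45 and 21.3 ± 2.52 CPM. With KO liver 5 left out, 1 of the 10 was higher and 2 lower, beside 3406 higher and 3795 lower of all 17411 genes tested. Of 8 B cell genes none passed, with *Ms4a1* at -0.94 and *Cd79b* at -0.80, at a summed 15.2 to 29.7 CPM in WT and 10.9 to 19.4 CPM in KO livers. Of 7 T cell genes tested none passed, and *Trac* was listed at 0, with *Cd3e* at 0.11 and *Cd3d* at 0.08 under TMM, both negative with library size as the only scaling (-0.02 and -0.06). In the fit that left out KO liver 5, both were negative as well (-0.17 and -0.46), 1 B cell gene was lower and 0 T cell genes passed. KO liver 5 had the highest T cell sum of the 20 livers at 31.5 CPM.

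Lists of other liver cells also set KO liver 5 apart. Its hepatocyte list summed to 31140 CPM, the lowest of the KO livers on CDA-HFD, whose highest was 94560 CPM, and its cholangiocyte and stellate cell lists, at 651 and 1609 CPM, were the highest of those KO livers. *Spp1*, at up to 561 CPM in those KO livers, made up most of that cholangiocyte sum and is also in the macrophage list. The sinusoidal endothelium list of KO liver 5, at 397 CPM, was the lowest of the 20 livers. None of the 6 hepatocyte, 6 endothelial and 6 cholangiocyte genes passed over all 10 livers, and 1 of 6 stellate cell genes did, *Acta2*, which fell by 1.90 on the log2 scale (edgeR adjusted p = 0.0119). With KO liver 5 left out, 3 hepatocyte and 4 endothelial genes were higher, and 6 cholangiocyte and 4 stellate cell genes lower. Over all 17411 genes tested in that fit, 3406 were higher and 3795 lower. In WT livers on WD, the high liver 1 also had the highest sum of the macrophage and *Ptprc* lists of its group, at 513 and 77.0 CPM.

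**Figure D4:**
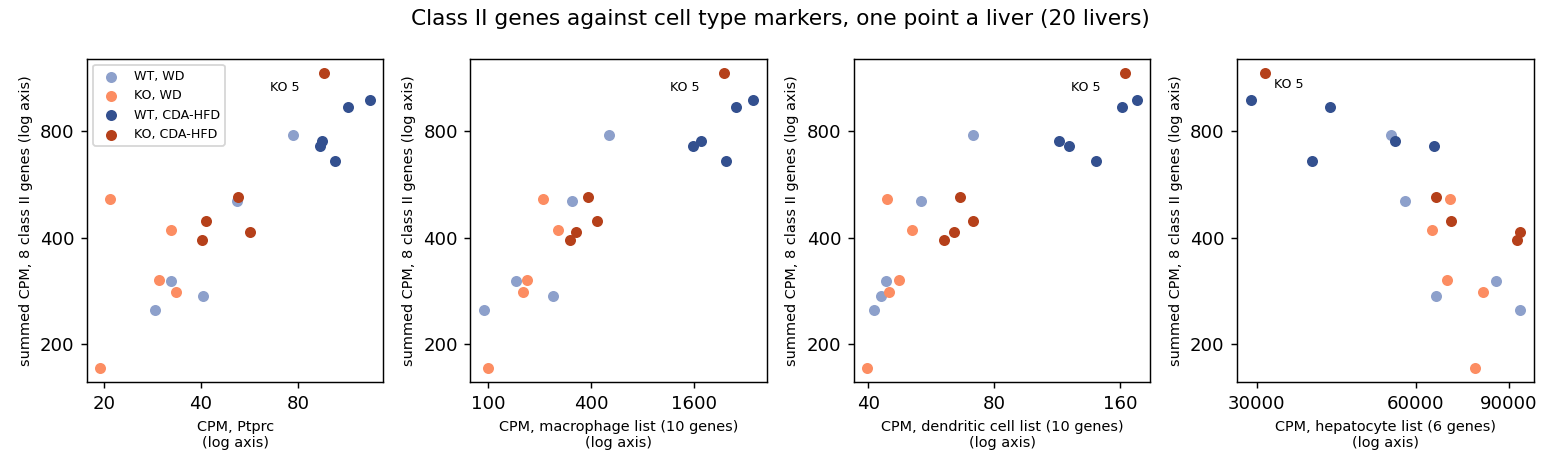
Summed CPM of the 8 class II genes (vertical axis, log scale) against the level of *Ptprc* and the summed CPM of the macrophage, dendritic cell and hepatocyte lists (horizontal axes, log scale), one point for each of the 20 livers. KO liver 5 on CDA-HFD lies within the range of the WT livers on CDA-HFD on all 4 horizontal axes and above them on the vertical axis, with 1164 CPM for the 8 genes.

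Across the 20 livers, each gene was compared with the mean log2 CPM of the other 7. *Cd74* had the highest Pearson r at 0.990, then *H2-Aa* at 0.988, and *Ciita* was at 0.925 and *Cd86* at 0.735. Within the groups, that is for deviations from the 4 group means, *Cd86* was at 0.523 and the other 7 were between 0.911 and 0.983. These are descriptions over 20 libraries that share groups and KO liver 5. Of 10772 genes outside the lists, *Lpcat2*, an acyltransferase of lysophospholipids, was most like the mean of the 8 members (r = 0.973), followed by *Unc93b1*, the chaperone of endosomal Toll-like receptors (r = 0.965), and *Was*, the actin regulator of blood cells (r = 0.960). *Pitpnm1*, *Neurl3*, *Kif21b*, *C1qc*, *Nup107*, *Parp8* and *Arhgap30* followed at 0.949 to 0.959. For deviations from group means, *Sh3bp1* (r = 0.956), *Lpcat2* (0.954), *Plekhm2* (0.951), *Nup107* (0.947) and *Unc93b1* (0.942) were the most alike. Of these 12 genes *C1qc*, a complement subunit made by macrophages, fell in KO livers on CDA-HFD (-0.77, edgeR adjusted p = 0.0357).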

How the data were processed

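The deposited values were raw read counts per gene, made by the authors from RNA-seq of whole liver. The labels' processing notes name mm10. The aligner, the counter and whether strand was used are not given in the sources used here, and the labels and the paper's methods name different library kits. Rows that name no gene held 50.3% to 57.0% of reads (not uniquely aligned, 18.0% to 28.7%) and were left out. Low counts were filtered with filterByExpr, and edgeR 4.0.16 (R 4.3.3) was used with TMM and the quasi-likelihood test, per comparison on its 10 livers and on all 20 for the interaction. Single values and ratios had exact two-sided permutation tests over 252 splits. p-values measure the spread between these livers. Alternatives were RLE and library size scaling, DESeq2 1.42.0, other filters, 1 fit on all livers, a replicate block and each liver left out. The members and lists were chosen with earlier results of these data known. Lists gave named genes by role. Likeness was computed over genes whose log2 CPM averaged 2 or more (prior count 2). Promoter windows were from RefSeq.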

Additional observations from a re-analysis of the deposited data

Results flagged for a closer look

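In each group of 5 livers the highest and lowest value of each gene was compared with the rest by Dixon's test, and 7 of 32 sets held a liver far from the others. Chance alone gives such a liver in about 1 in 20 groups, and the members are not independent of each other. KO liver 5 on CDA-HFD gave 5 of them: *H2-Aa* at 231.1 CPM (next KO liver 88.85), *H2-Ab1* at 200.6 CPM (82.45), *H2-Eb1* at 200.2 CPM (77.89), *H2-DMb1* at 16.74 CPM (8.239) and *Cd74* at 457 CPM (216.2). *H2-DMa* was at 17.71 CPM in KO liver 3 on WD, where the next KO liver had 12.23 CPM. *H2-DMb1* was at 21.67 CPM in WT liver 1 on CDA-HFD, where the next WT liver had 13.7 CPM. The cause of these values was not tested.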

How the results depend on the processing

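Of 752 values for members under the alternatives, 680 kept their direction and side of the threshold, 25 lost and 15 gained a call, and 32 changed sign. Over the 8 members, KO against WT on CDA-HFD gave 1 call, 0 with no filter, 0 with all 20 livers in 1 fit, and 0 to 7 with each liver left out (7 without KO liver 5). CDA-HFD against WD gave 6 in WT livers, 3 to 8 with each liver left out, and 0 in KO livers, 2 with library size only, 1 with DESeq2 and 0 to 1 with each liver left out. KO against WT on WD and the interaction gave 0 throughout. Replicate numbers did not pair the livers: correlations of same-numbered livers on CDA-HFD ran from -0.392 to 0.363. With the replicate block, 0 members were called in KO against WT on CDA-HFD (2459 genes in all, 2664 without it) and 7 in WT livers between diets.

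Signs changed on CDA-HFD with library size only for *Flt3* (-0.055), *Zbtb46* (-0.0358), *Cd3e* (-0.0229), *Cd3d* (-0.0649), *Lrat* (-0.0847), *Reln* (-0.12) and *Apoa1* (-0.0332), with the block for *Flt3* (-0.0142) and *Cd3d* (-0.0435), and with library size only for the interaction of *Cd86* (-0.0865). With each liver left out, *Flt3* ran from -0.29 to 0.20, *Cd3d* from -0.46 to 0.27, *Cd3e* from -0.17 to 0.26, *Lrat* from -0.0705 to 0.27 and *Reln* from -0.0047 to 0.13. On WD, *H2-Ab1* ran from -0.50 to 0.11, *H2-Eb1* from -0.63 to 0.0757, *H2-DMa* from -0.25 to 0.16, *Cd74* from -0.50 to 0.0208 and *Ciita* from -0.47 to 0.0748. In the interaction, *H2-Ab1* ran from -0.57 to 0.15, *H2-Eb1* from -0.57 to 0.23, *H2-DMb1* from -0.54 to 0.0407, *Cd74* from -0.54 to 0.0064, *Ciita* from -0.21 to 0.32 and *Cd86* from -0.13 to 0.18. Genes called over the whole table ran from 709 to 7201 on CDA-HFD with each liver left out, and from 1 to 33 on WD. The cause of these shifts was not tested, beyond fewer livers in the fits that left one out.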
